A study of Mus musculus with 12 samples.

Results

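The cytosolic ribosomal protein genes encode the proteins of the ribosome that works in the cytoplasm, apart from those of mitochondria. They were chosen by symbol and not by any measured value. The rule took mouse protein-coding genes named Rpl or Rps with a number and at most 2 of the letters a, l, x, y and p, plus Rplp0, Rplp1, Rplp2, Rpsa and Fau. It gave 83 genes, 51 of the large (60S) and 32 of the small (40S) subunit, and 82 of them were among the 24448 genes tested. Rpl37 had no named probe. The rule does not take Rps3a1 or Rack1, which also encode ribosomal components, and the Rps6k kinases are not ribosomal proteins. RNA was measured on 12 one-colour microarrays of mouse embryonic stem (ES) cell lines, 3 for each of 4 groups. These were Nat1-null cells cultured in 2i+LIF or in LIF, and wild-type cells cultured in 2i+LIF or in LIF, all grown on gelatin without a stated feeder layer. LIF is a cytokine that holds mouse ES cells undifferentiated, and 2i stands for inhibitors of the kinases MEK and GSK3. The study asked how 2i acts in cells with and without Nat1, read here as the older name of Eif4g2 (also DAP5), a translation factor related to eIF4G. The labels name neither the clone nor how the null allele was made, and do not say whether replicates were separate cultures, so p-values here speak only to the spread among these samples.

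A ribosome holds 1 copy of most of its proteins, and cells make these proteins in matched amounts. Their mRNAs are among the most abundant of growing cells and share a start known as the 5′ terminal oligopyrimidine (5′ TOP) motif, a C followed by a run of pyrimidines, through which the kinase mTORC1 sets their translation. Myc is known to raise the transcription of ribosomal protein and ribosome assembly genes, and ribosomal proteins made in excess of rRNA are degraded or bind Mdm2, the ubiquitin ligase of p53. Several members have a paralog used mainly in particular tissues, such as Rpl39l and Rpl10l in male germ cells and Rpl3l in heart and skeletal muscle.

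The start regions of 6 members are printed because the results below turn on these genes and because they show how far the shared start is visible in the annotation. Each runs from 40 bases before to 20 bases from the annotated start, 5′ to 3′ on the gene's strand, in RefSeq's annotation of GRCm38.p6, with the longest pyrimidine run that reaches within 15 bases of the start in capitals. Rps6 lies at chr4:86857348-86857407 on the minus strand, Rps27 at chr3:90213629-90213688 on the minus strand and the first entry of Rps21 at chr2:180257339-180257398 on the plus strand. Rps15 lies at chr10:80292391-80292450 on the plus strand, Rpl39 at chrX:37085203-37085262 on the minus strand and Rpl39l at chr16:10170188-10170247 on the plus strand.
Rps6: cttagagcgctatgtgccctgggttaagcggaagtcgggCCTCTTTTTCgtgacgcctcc
Rps27: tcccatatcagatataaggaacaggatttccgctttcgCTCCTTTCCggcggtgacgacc
Rps21: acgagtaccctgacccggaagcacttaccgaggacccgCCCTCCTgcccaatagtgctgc
Rps15: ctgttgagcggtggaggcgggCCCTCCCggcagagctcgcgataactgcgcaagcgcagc
Rpl39: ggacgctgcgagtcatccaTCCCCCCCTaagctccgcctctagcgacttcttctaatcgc
Rpl39l: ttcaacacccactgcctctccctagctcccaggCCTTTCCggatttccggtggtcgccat
In Rps6, Rps27 and Rps21 the annotated start is a C followed by at least 4 pyrimidines. In Rps15, Rpl39 and Rpl39l it is not, and the runs in capitals begin 19, 21 and 7 bases before the annotated start. Of the 83 members, 63 had an entry, and 15 of these (23.8%) began with a C and at least 4 pyrimidines at the annotated start, against 3.01% of 27025 genes. A run of at least 8 pyrimidines reaching within 15 bases of the start was found in 32 (50.8%), against 5416 of the 27025 genes. In the whole window of 250 bases before and 50 from the start, searched on both strands, CCGGAAG stood in 25 (39.7%, against 9.93% of genes) and AAGATGGC in 6 (9.52%, against 3.19%). TATAAA stood in 7 (11.1%, against 15.7%) and CACGTG in 6 (9.52%, against 8.09%). An AAGATGGC match can begin on the last letters of a CCGGAAG match, and a match is only a match of letters.

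A level is given as log2 signal above the 75th percentile of the same array. All 82 members were well above background on all 12 arrays and none was saturated, the brightest member reaching 68.6% to 88.0% of the scanner's limit. Eif4g2, the targeted gene, had levels of 1.24, 1.28 and 1.42 on Nat1-null 2i+LIF arrays and 1.32, 1.26 and 1.25 on Nat1-null LIF arrays. It had 4.23, 4.09 and 4.29 on wild-type 2i+LIF arrays and 4.54, 4.49 and 4.44 on wild-type LIF arrays, so the groups match their labels. All 10 ES cell markers were well above background on every array, at a summed level (linear, relative to the percentile) of 866 to 956 and 879 to 1020 in Nat1-null cells in 2i+LIF and in LIF, and 884 to 967 and 545 to 567 in wild-type cells in 2i+LIF and in LIF. Fibroblast markers were at 29.9 to 36.5 and 23.8 to 27.6 in Nat1-null cells in 2i+LIF and in LIF, and 45.3 to 51.0 in wild-type cells in 2i+LIF. In wild-type cells in LIF they were at 354 to 378, with 16 of 18 well above background and Lum and Fap on no array, and the trophoblast list was at 175 to 200 there against 9.72 to 28.0 elsewhere. Neural progenitor markers were at 27.8 to 28.7 there and at 2.83 to 10.3 elsewhere. Primitive endoderm markers were instead lowest there, at 13.1 to 14.9, and at 18.0 to 41.7 elsewhere. Wild-type LIF arrays were on slide 1, wild-type 2i+LIF arrays on slide 2 and all Nat1-null arrays on slide 3, so slide and medium in wild type, and slide and genotype, cannot be told apart. In bulk RNA, fewer cells of a type and less RNA per cell cannot be told apart either.

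As a group, the members were higher in 2i+LIF than in LIF in both genotypes relative to the percentile. The median level of the 82 members was 8.75, 8.79 and 8.82 on Nat1-null 2i+LIF arrays, 8.47, 8.56 and 8.56 on Nat1-null LIF arrays, 8.80, 8.87 and 8.90 on wild-type 2i+LIF arrays and 8.62, 8.65 and 8.65 on wild-type LIF arrays. The 6 arrays in 2i+LIF were all above the 6 in LIF, and the Nat1-null arrays were below the wild-type arrays in LIF but overlapped them in 2i+LIF. Replicates lay close together, with a median SD per member of 0.04, 0.06, 0.08 and 0.03 in the same order of groups, against 0.12, 0.16, 0.09 and 0.07 over all genes. The order of the groups did not hold when arrays were scaled to spike-in RNA, an alternative chosen after seeing the data. Relative to the 3 brightest spike-in probes the median was 8.67, 8.76 and 8.82 on Nat1-null 2i+LIF arrays and 8.60, 8.65 and 8.74 on Nat1-null LIF arrays. It was 8.67, 8.67 and 8.69 on wild-type 2i+LIF arrays and 8.74, 8.74 and 8.77 on wild-type LIF arrays. On that scale the wild-type cells in 2i+LIF lay below those in LIF and the Nat1-null groups overlapped.

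**Figure D1:**
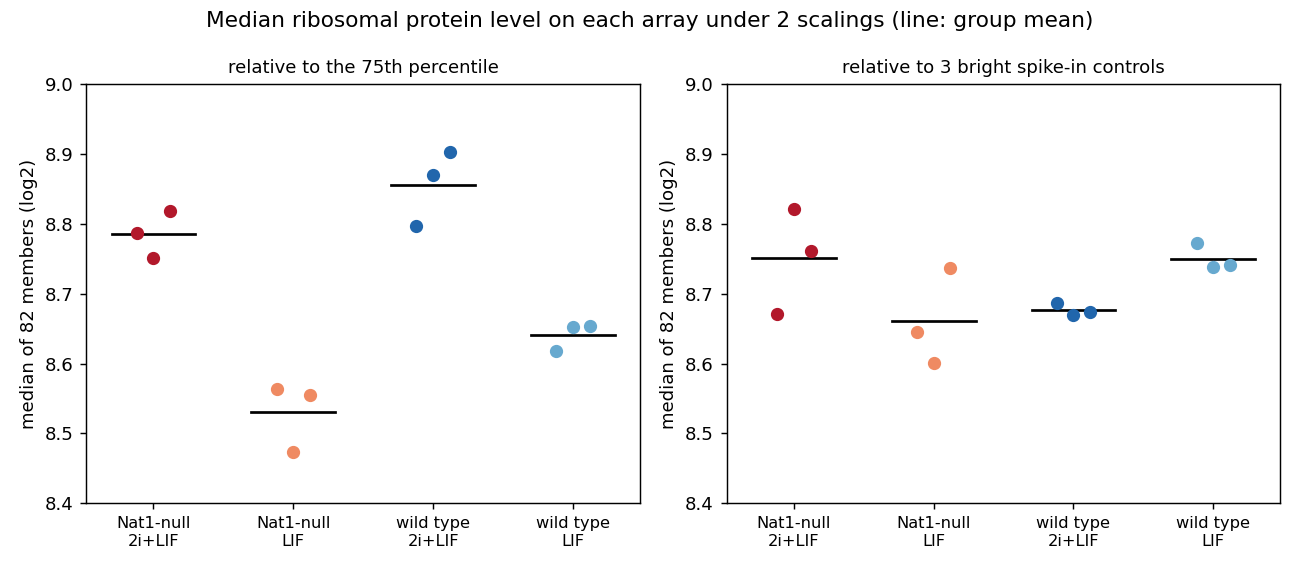
Median log2 level of the 82 ribosomal protein genes on each array (points; line, group mean), relative to the array's 75th percentile (left) and to 3 bright spike-in probes (right). On the left the arrays in 2i+LIF lie at 8.75 to 8.90 and those in LIF at 8.47 to 8.65; on the right the wild-type arrays in 2i+LIF (8.67 to 8.69) lie below those in LIF (8.74 to 8.77).

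In wild-type cells, 2i+LIF was compared with LIF to see what the inhibitors do where Nat1 is intact. Of the 82 members, 62 rose and 1, Rpl19, fell (limma, adjusted p below 0.05 over all genes), while 35.0% of all genes tested rose and 27.2% fell. The members' median difference was 0.27 on the log2 scale, against 0.06 for all genes, and with no scaling, all spike-ins or the bright spike-ins it turned to -0.30, -0.11 and -0.02. Both subunits took part, with 37 of 50 members of the 60S and 25 of 32 of the 40S subunit called higher, and medians of 0.25 and 0.27. Differences ran from -0.28 to 0.63, and 77 of 82 were above 0. Without wild-type LIF replicate 1, or Nat1-null LIF replicate 2 or 3, which share in the estimate of the spread, 2 members were called lower.

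The members called higher with the largest differences were Rpl39l, Rps15, Rpl10l, Rpl3, Rpl36a and Rps9. Rps15, a protein of the head of the small subunit, had levels of 8.09, 8.20 and 8.26 in 2i+LIF and 7.56, 7.68 and 7.72 in LIF, a difference of 0.53 (SE 0.07, limma adjusted p = 8.4e-05). Rpl3, one of the proteins nearest the peptidyl transferase centre, had 8.53, 8.59 and 8.67 in 2i+LIF and 8.07, 8.08 and 8.13 in LIF (difference 0.50, SE 0.06, limma adjusted p = 5.1e-05). Rpl36a, a 60S protein, had 8.09, 8.15 and 8.17 in 2i+LIF and 7.61, 7.67 and 7.68 in LIF (difference 0.48, SE 0.05, limma adjusted p = 1.3e-05). In these 3 genes every array in 2i+LIF was above every array in LIF, and the spread within a group was small beside the gap. Genes here and below were named for the size of a called difference, so lack of overlap describes them and adds no support. With no scaling the differences of these 3 genes turned below 0. Rps9, a 40S protein that binds rRNA early in assembly, rose by 0.42, and Rpl10l by 0.52 (SE 0.17), a call lost without any 1 of 5 arrays. Rpl19, a 60S protein, was lower, with 8.45, 8.52 and 8.55 in 2i+LIF and 8.64, 8.72 and 8.74 in LIF (difference -0.19, SE 0.05, limma adjusted p = 0.0087), again without overlap.

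The count of 62 depended on the scaling. Quantile normalization left 10 members called higher and 14 lower, with a median of 0.01 against 0.05 for all genes, and cyclic loess left 11 and 11, with a median of 0.02 against -0.06. With no scaling 0 were called higher and 77 lower, with all spike-ins 0 and 18 and with the bright spike-ins 3 and 13. All genes moved with those scalings, to medians of -0.50, -0.32 and -0.23. The 75th percentile itself was 0.57 lower in 2i+LIF, while the bright spike-ins were 0.20 to 0.32 lower. Rpl19, which fell, was the member that passed in the same direction under all 5 other scalings. No scaling and the spike-ins, which moved all genes downward, let a fall pass more readily than a rise. Centring each array on the members' median level, as in all values relative to the members, left their median difference at 0.05, not 0. Departures on that scale are therefore not measured from the typical member. On it 18 members were higher and 9 lower, while 22.2% and 39.3% of all genes were so called. Those farthest above were Rpl39l (0.42 relative to the members), Rps15 (0.31), Rpl10l (0.30, not called), Rpl3 (0.28) and Rpl36a (0.27). Those farthest below were Rpl3l (-0.50), Rpl19 (-0.41), Rpl23a (-0.25), Rpl26 (-0.25) and Rpl21 (-0.23).

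**Figure D2:**
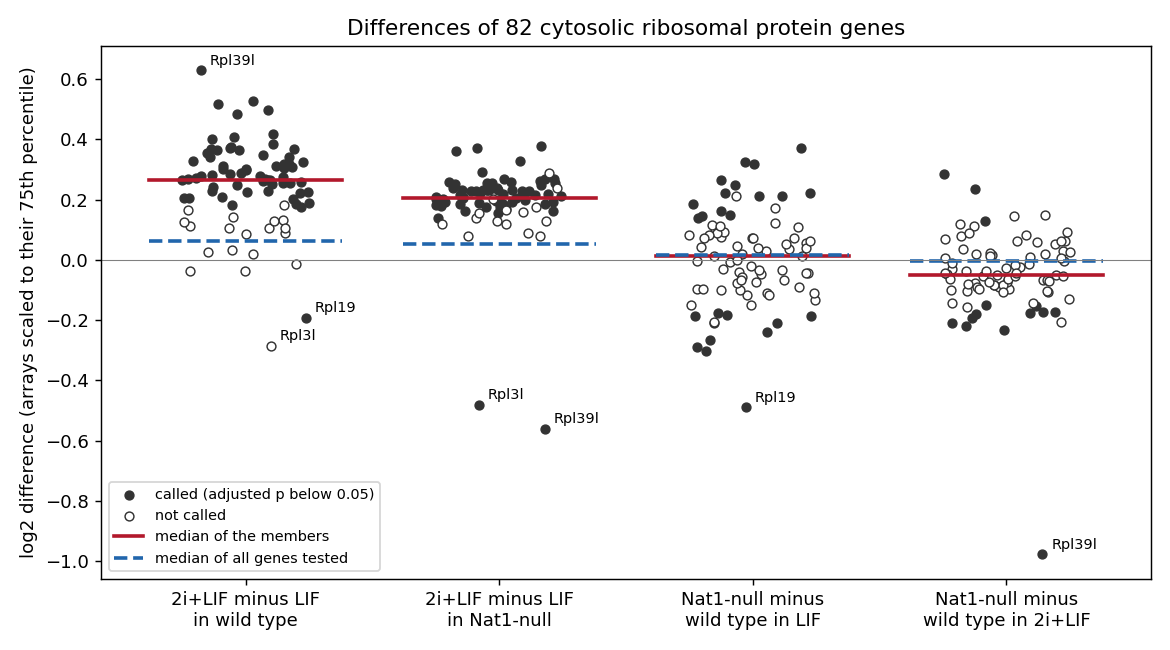
Log2 difference of each of the 82 members in 4 comparisons, 2i+LIF minus LIF or Nat1-null minus wild type, with filled points called at adjusted p below 0.05 and lines at the median of the members (red) and of all genes (blue, dashed). Most members lie between 0.1 and 0.4 in the 2i comparisons (medians 0.27 and 0.21) and around 0 in the genotype comparisons (0.01 and -0.05), with Rpl39l at 0.63, -0.56 and -0.98 in the first, second and last.

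In Nat1-null cells the same change of medium was read on a single slide. Here 65 members rose and 2, Rpl39l and Rpl3l, fell (limma), while 21.4% of all genes rose and 15.8% fell. The median difference of the members was 0.21, against 0.05 for all genes, and 80 of 82 differences were above 0, though it turned to -0.05 once arrays were centred on the members. The 60S subunit had 37 of 50 members higher and the 40S subunit 28 of 32. On that centred scale, where the median was -0.05, 0 rose and 7 fell, where 7.24% and 38.1% of all genes did. Of the 67 calls, 33 passed whichever 1 array was left out, against 55 of the 63 in wild type.

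Rps6, the 40S protein phosphorylated by S6 kinase, had the largest rise, with 8.66, 8.65 and 8.69 in 2i+LIF and 8.28, 8.20 and 8.38 in LIF (difference 0.38, SE 0.06, limma adjusted p = 0.0014). It was followed by the 60S proteins Rpl18 (0.37), Rpl22 (0.36) and Rpl39 (0.33), by Rps15a (0.29), a 40S protein, and by Rps27a (0.27), a 40S protein made as a fusion with ubiquitin. Rpl39, which lines the peptide exit tunnel, had 8.23, 8.17 and 8.19 in 2i+LIF and 7.86, 7.81 and 7.93 in LIF (SE 0.06, limma adjusted p = 0.0024). The 3 probes of Rps6 ran from -0.01 to 0.38 and the 2 of Rpl22 were at -0.002 and 0.36, and the values given are those of the brightest. For Rps6 and Rpl39, whose values are shown per array, the groups did not overlap. The group's rise rested partly on how the spread was estimated. With only these 6 arrays in the fit 13 members were called higher and 0 lower, and leaving out a single array gave between 36 and 66 higher: 43 without Nat1-null LIF replicate 3, and 37 and 36 without Nat1-null 2i+LIF replicates 1 and 3. A single member was called lower without Nat1-null LIF replicate 1 or 3 or without Nat1-null 2i+LIF replicate 2 or 3. Quantile normalization left 4 higher, cyclic loess 4, no scaling 1 and either set of spike-ins 0, with 2 lower each time, and Rpl39l and Rpl3l were called lower under all 5. The medians of all genes were -0.14, -0.10 and -0.11 with no scaling, all spike-ins and the bright spike-ins. On the slide, Nat1-null LIF replicate 3 shared a row with the 3 arrays in 2i+LIF, and against that array alone the members' median was 0.20 higher, with 80 of 82 above 0 (no test).

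The 2i comparisons share no arrays, and on the percentile scale 77 of 82 members differed in the same direction in both. With no scaling or spike-ins the members' medians did not share a sign. They were -0.30 in wild type and 0.01 in Nat1-null cells with no scaling. With all spike-ins they were -0.11 and 0.06, and with the bright spike-ins -0.02 and 0.04. Of the members called higher, 50 were called in both genotypes, which is 80.65% of those in wild type and 76.92% of those in Nat1-null cells. With 62 of the 82 called in wild type and 65 in Nat1-null cells, unrelated calls would overlap about as much. Over all genes, 56.7% differed in the same direction, and the genes called higher in both were 30.7% of those in wild type and 50.4% of those in Nat1-null cells. The 5 members with opposite signs were Rpl19, Rpl21, Rpl23a, Rpl26 and Rpl39l. Whether the 2i difference itself depended on genotype was tested as an interaction, positive where the difference was larger in Nat1-null cells. It passed for 15 members, 5 upward and 10 downward, while 23.6% of all genes passed upward and 26.2% downward, and the members' median was -0.06 against -0.03. With no scaling, all spike-ins, the bright spike-ins or quantile normalization the median was above 0, and 67, 11, 6 and 9 members passed upward. All genes then had medians of 0.34, 0.20, 0.09 and -0.06, beside 0.31, 0.17, 0.06 and 0.01 for the members. Relative to the members' median level 5 passed upward and 18 downward, with a median of -0.10, while 22.0% and 28.7% of all genes did. The upward calls were Rpl19 (0.41), Rps6 (0.25), Rps27a (0.24), Rpl23a (0.23) and Rpl27 (0.22), and the largest downward calls were Rpl39l (-1.19), Rpl3 (-0.33), Rpl36a (-0.32), Rps15 (-0.31), Rpl28 (-0.29) and Rps27 (-0.27). Those that passed in the same direction under all 5 other scalings were Rpl19, Rpl23a, Rpl27, Rpl39l, Rps27a and Rps6. All but Rpl39l were upward, the direction in which all genes moved with no scaling or spike-ins. The upward count was 2 without any 1 of the wild-type LIF arrays, wild-type 2i+LIF replicate 1 or Nat1-null 2i+LIF replicate 1 or 3, and 3 without wild-type 2i+LIF replicate 2 or Nat1-null LIF replicate 1 or 2. The downward count was 5 without wild-type LIF replicate 1 or wild-type 2i+LIF replicate 3, and 6 without Nat1-null LIF replicate 1. Whichever 1 array was left out, 7 of the 15 calls passed: Rpl19, Rpl23a, Rpl39l, Rpl3, Rpl36a, Rpl28 and Rps29. The call of Rps6 was lost in 13 of 28 alternatives, mostly on leaving out an array.

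**Figure D3:**
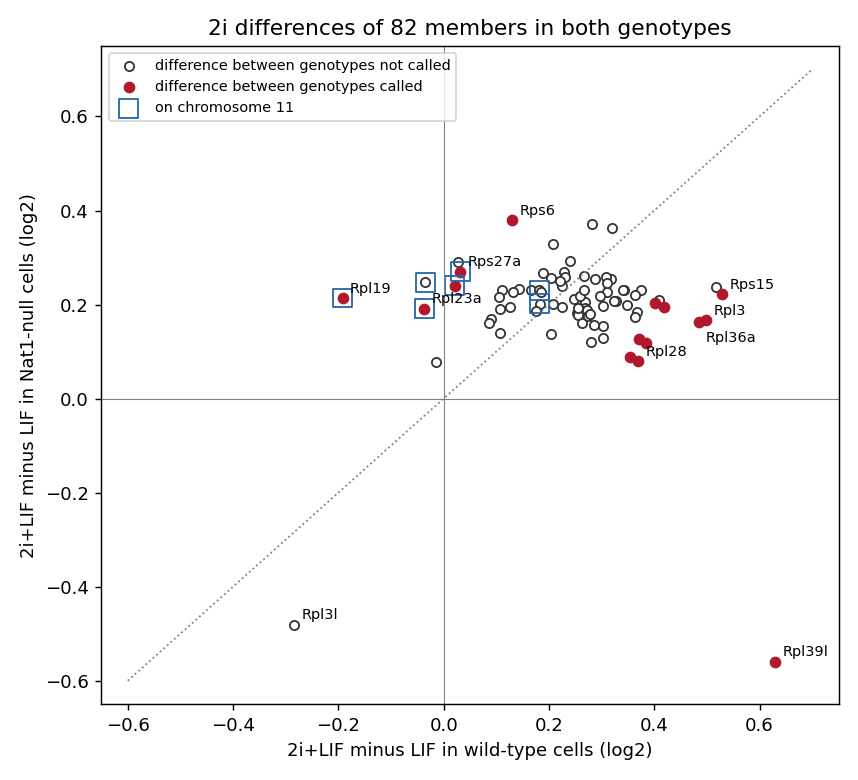
The 2i difference of each of the 82 members in Nat1-null cells (vertical, log2) against that in wild-type cells (horizontal, log2), with filled red points where the difference between genotypes was called, squares on chromosome 11 members and the diagonal dotted. Most points form 1 cloud near 0.21 and 0.27; Rpl39l lies at -0.56 and 0.63, Rpl3l below 0 on both axes, and Rpl19 is at 0.21 and -0.19.

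In LIF, Nat1-null cells were compared with wild-type cells, a comparison that crosses slides 3 and 1. Of the members, 14 rose and 11 fell (limma), which is fewer than the 33.9% and 32.9% of all genes that rose and fell, and the median difference was 0.01 against 0.02 for all genes. That median turned below 0 under quantile normalization, cyclic loess, no scaling, all spike-ins and the scaling by chromosome described below, and without Nat1-null LIF replicate 1 (-0.03). Centred on the members it was 0.12. The array medians given above summarise levels and not each gene's difference, and there Nat1-null cells averaged 8.53 and wild-type cells 8.64. Without wild-type LIF replicate 3 the number that fell was 7. Relative to the members' median level 39 members were higher and 3 lower, while 40.6% and 28.3% of all genes were so called. The median on that scale was 0.12 and not 0, so these are not departures from the typical member. Calls in the 60S subunit were 6 higher and 8 lower, and in the 40S subunit 8 higher and 3 lower.

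The largest rises were all but 1 in 40S genes: Rps21 (0.37), Rps29 (0.33), Rps15 (0.32), Rpl36a (0.27), Rps25 (0.25) and Rps2 (0.22). Rps21, a small 40S protein, had levels of 6.99, 6.89 and 7.01 in Nat1-null cells and 6.62, 6.67 and 6.49 in wild-type cells (SE 0.06, limma adjusted p = 0.00037). Rps29, a zinc-binding 40S protein, had 9.05, 9.01 and 8.98 in Nat1-null cells and 8.68, 8.68 and 8.70 in wild-type cells (SE 0.05, limma adjusted p = 0.0002). Rps15 had 8.03, 7.88 and 8.01 in Nat1-null cells against the wild-type values above (SE 0.07, limma adjusted p = 0.002). In these 3 genes all Nat1-null arrays were above all wild-type arrays.

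The largest falls were Rpl19 (-0.49), Rps6 (-0.30), Rps27l (-0.29), Rpl26 (-0.27), Rplp0 (-0.24) and Rpl29 (-0.21). Rpl19 had 8.25, 8.15 and 8.23 in Nat1-null cells, all below the wild-type values above (SE 0.05, limma adjusted p = 1.6e-05). Rps6 had 8.28, 8.20 and 8.38 in Nat1-null cells and 8.55, 8.61 and 8.61 in wild-type cells (SE 0.06, limma adjusted p = 0.002), without overlap, though its 3 probes ran from -0.37 to 0.17. Rps27l, a paralog of Rps27 that p53 induces, had 7.53, 7.29 and 7.46 in Nat1-null cells and 7.74, 7.77 and 7.63 in wild-type cells (SE 0.07, limma adjusted p = 0.004). Of the 25 calls, 10 passed in the same direction under all 5 other scalings: Rpl19, Rpl26, Rpl27, Rpl29, Rplp0, Rps6 and Rps27l fell, and Rps15, Rps21 and Rps29 rose. Relative to the members' median level 6 of the 10 also passed, namely Rpl19, Rps6, Rps27l, Rps15, Rps21 and Rps29. The members' median difference on that scale was 0.12. Of the 51 members with several probes, 25 had probes of opposite signs here and 27 in 2i+LIF, against 6 and 7 for 2i in wild type and in Nat1-null cells. The wild-type LIF arrays on which these differences rest carry the fibroblast, trophoblast and neural signal and the lower ES cell and primitive endoderm signals given above. The part of these signals in the differences was not tested.

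In 2i+LIF, the same genotypes gave 3 members higher and 11 lower (limma), while 21.0% of all genes rose and 22.6% fell, with a median of -0.05 against -0.01 for all genes. The median turned above 0 with no scaling (0.17), all spike-ins (0.16), the bright spike-ins (0.09) and centring on the members (0.02), and 51, 24 and 18 members were then called higher with the first 3. All genes moved with those 3 scalings too, to medians of 0.22, 0.20 and 0.14. Relative to the members' own median 15 were higher and 3 lower, while 26.9% and 18.7% of all genes were. The number higher was 1 without any 1 of the Nat1-null 2i+LIF arrays or wild-type 2i+LIF replicate 1 or 2, and 5 without wild-type 2i+LIF replicate 3. The number lower was 4 without Nat1-null 2i+LIF replicate 1 or 2, 5 without its replicate 3, 3 without wild-type 2i+LIF replicate 3, and 7 without wild-type 2i+LIF replicate 2 or wild-type LIF replicate 2. Of the 14 calls, 4 passed whichever 1 array was left out, Rpl39l, Rps21 and Rpl13 among them. Rpl39l was far below the rest, at -0.98. Falls further included Rpl13 (-0.23), Rpl3 (-0.21), Rps27l (-0.19) and Rpl36 (-0.18), and the rises were Rps21 (0.29), Rpl13a (0.24) and Rpl23a (0.13). Rps21 had 7.17, 7.10 and 7.19 in Nat1-null cells and 6.87, 6.85 and 6.89 in wild-type cells (SE 0.06, limma adjusted p = 0.0038), again without overlap. Its genotype difference was called in both media under all 28 alternatives run, from 0.22 to 0.48 in LIF and from 0.23 to 0.51 in 2i+LIF. Rpl13a, a 60S protein that leaves the ribosome as part of a translation inhibitor in stimulated human monocytes, had 8.52, 8.50 and 8.54 in Nat1-null cells and 8.13, 8.26 and 8.46 in wild-type cells (SE 0.08, limma adjusted p = 0.029). The wild-type replicates of Rpl13a spread widely, and its 3 probes disagreed, from -0.36 to 0.24.

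Rpl39l stood apart from the other members, being the highest of them for 2i in wild type and the lowest for 2i in Nat1-null cells. Its levels were 5.05, 4.65 and 4.88 on Nat1-null 2i+LIF arrays, 5.73, 4.99 and 5.54 on Nat1-null LIF arrays, 5.85, 5.84 and 5.82 on wild-type 2i+LIF arrays and 5.19, 5.24 and 5.19 on wild-type LIF arrays. The wild-type replicates agreed closely (5.84 ± 0.02 in 2i+LIF and 5.21 ± 0.03 in LIF, SD, n = 3), whereas the Nat1-null ones spread (4.86 ± 0.20 and 5.42 ± 0.38). In 2i+LIF every Nat1-null array was below every wild-type array, a 1.97-fold lower level (log2 difference -0.98, SE 0.17, limma adjusted p = 0.001), and this call stood under all 28 alternatives, from -1.08 to -0.76. In LIF the groups overlapped (difference 0.21, limma adjusted p = 0.28). The rise with 2i in wild type was 0.63 (SE 0.17, limma adjusted p = 0.0078). It was lost with no scaling (0.06, adjusted p = 0.73), with all spike-ins (0.25, adjusted p = 0.21) and with the bright spike-ins (0.34, adjusted p = 0.081). The fall with 2i in Nat1-null cells was 0.56 (SE 0.17, limma adjusted p = 0.025), but here 1 LIF array, at 4.99, lay below 1 array in 2i+LIF, at 5.05. These 2 arrays carry different replicate numbers, and each 2i+LIF array was below the LIF array of its own number, though the numbers were not taken as pairs. That call was lost without Nat1-null LIF replicate 1 or 3, without Nat1-null 2i+LIF replicate 2 or 3, and with only the 6 arrays of the comparison (adjusted p = 0.13). The interaction of -1.19 (limma adjusted p = 0.0021) passed under all 28 alternatives, from -1.40 to -0.82.

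**Figure D4:**
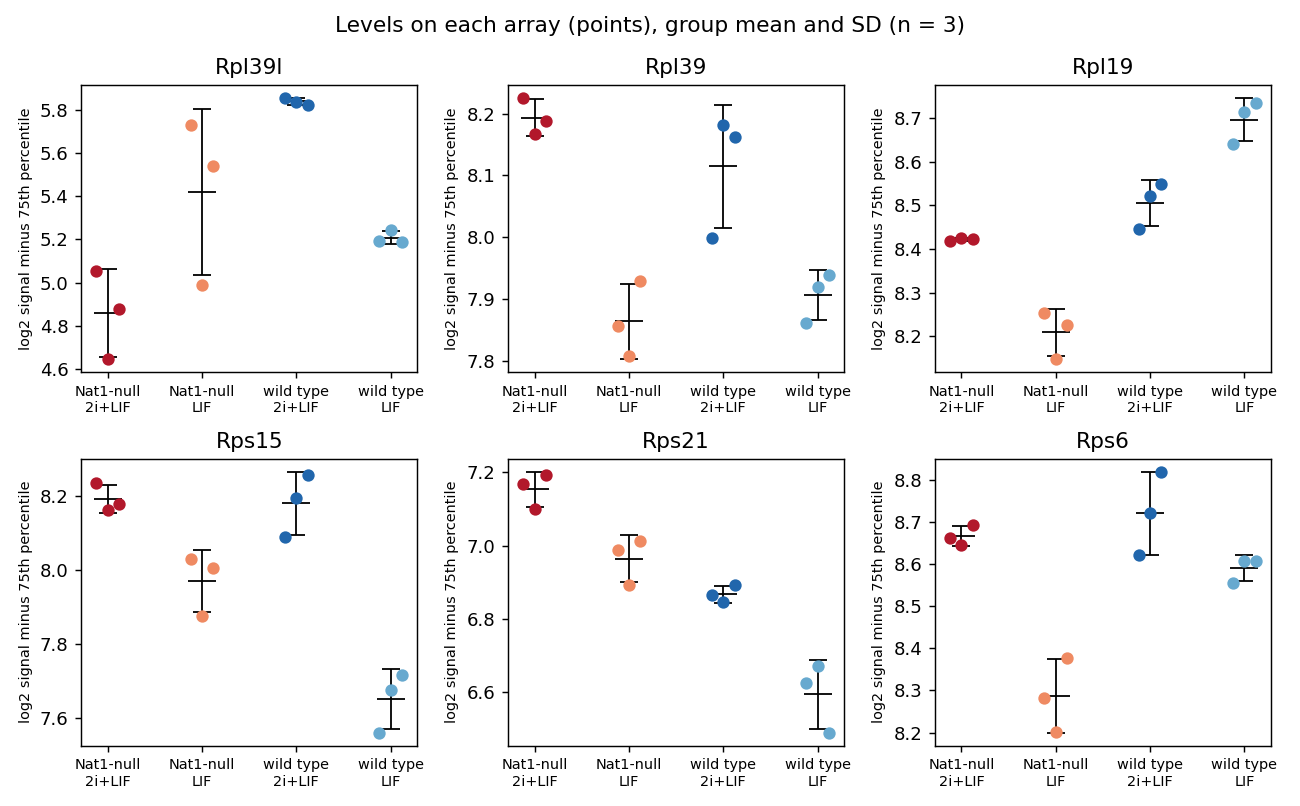
Log2 level above the array's 75th percentile of 6 ribosomal protein genes on each array (points), with group means and SD (n = 3). Rpl39l is at 4.65 to 5.05 in Nat1-null cells in 2i+LIF and 5.82 to 5.85 in wild-type cells in 2i+LIF; Rpl19 is highest in wild-type LIF (8.64 to 8.74) and Rps15 and Rps21 lowest there.

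The other paralogs each behaved in their own way relative to their partners. Rpl39, whose start region is shown beside that of Rpl39l, was called higher with 2i in both genotypes (0.21 in wild type, limma adjusted p = 0.014, and 0.33 in Nat1-null cells) and had genotype differences of -0.04 in LIF and 0.08 in 2i+LIF, neither called. Its wild-type call was lost without any 1 of 3 arrays (limma adjusted p = 0.051 to 0.055). With the scaling by chromosome described below, its 2i call in Nat1-null cells was lost and both genotype differences became calls. The single probe of Rpl39l thus did not follow the brightest probe of Rpl39, although probe sequences were not used here and how far they tell near-identical copies apart was not tested. Rpl3l was lower with 2i in Nat1-null cells, at -2.04, -1.79 and -1.85 in 2i+LIF and -1.47, -1.19 and -1.58 in LIF (difference -0.48, SE 0.12, limma adjusted p = 0.01). In wild type it had -1.86, -1.80 and -1.78 in 2i+LIF and -1.72, -1.48 and -1.39 in LIF (difference -0.28, limma adjusted p = 0.058). Its negative levels lie below the 75th percentile of the arrays, and its partner Rpl3 instead rose in wild type. Rpl10l, an intronless copy of the X-linked Rpl10, rose with 2i in wild type (limma adjusted p = 0.024), where Rpl10 itself had a difference of 0.09 (limma adjusted p = 0.19), and near-identical copies make both values uncertain. The call of Rpl10l was lost without any 1 of 5 arrays (limma adjusted p = 0.051 to 0.068). Rps27l had genotype differences of -0.29 in LIF and -0.19 in 2i+LIF, both called, the second lost without any 1 of 9 arrays (adjusted p = 0.055 to 0.13), against 0.22, called, and -0.04, not called, for Rps27. Rpl36al had no call in any comparison, with differences of 0.03 and 0.29 for 2i and -0.21 and 0.05 for genotype. Outside the rule, Rpl22l1, the paralog of Rpl22, was called higher with 2i (0.48 and 0.43) and higher in Nat1-null cells (0.30 in LIF and 0.25 in 2i+LIF). Rpl7l1, a paralog of Rpl7, rose with 2i in wild type (0.58) but had -0.22 in Nat1-null cells, not called (interaction -0.80).

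Members with known roles outside or at the edge of the ribosome mostly moved with the set in 2i. The stalk proteins Rplp1 and Rplp2, which recruit elongation factors, rose with 2i by 0.22 and 0.33 in wild type and by 0.25 and 0.21 in Nat1-null cells. The call of Rplp2 in Nat1-null cells was lost without Nat1-null 2i+LIF replicate 1 (limma adjusted p = 0.058). Rplp0, which anchors the stalk, had 0.13 with 2i in wild type, not called. It rose with 2i in Nat1-null cells (0.19), a call lost without any 1 of 3 arrays (limma adjusted p = 0.06 to 0.071). It was lower in Nat1-null cells than in wild-type cells in both media (-0.24 and -0.17, limma adjusted p = 0.0038 and 0.033), but its 3 probes ran from -0.29 to 0.08 in LIF and from -0.17 to 0.14 in 2i+LIF. The call in 2i+LIF was lost without any 1 of 6 arrays (adjusted p = 0.052 to 0.12). Rpl5 and Rpl11, which with 5S rRNA bind Mdm2, rose with 2i in wild type by 0.23 and 0.20, and Rpl5 also in Nat1-null cells (0.26). Rpl5 lost its call without any 1 of 4 arrays in wild type (limma adjusted p = 0.055 to 0.08). In Nat1-null cells it was lost without any 1 of 3 arrays (limma adjusted p = 0.057 to 0.07). Rps19, the gene most often mutated in human Diamond-Blackfan anaemia, rose by 0.29 and 0.25. Rpsa, Fau, Rpl10a, Rps4x and Rpl7 also rose in both genotypes, between 0.18 and 0.32. Of these, Rps4x lost its call without any 1 of 9 arrays in Nat1-null cells and of 5 in wild type, and Rpsa without any 1 of 5 arrays in Nat1-null cells. The 4 probes of Rpsa ran from -0.17 to 0.19 in Nat1-null cells. Relative to its chromosome Rps4x had 0.05 in Nat1-null cells (limma adjusted p = 0.66). The calls of Rpl7 in Nat1-null cells and of Rpl10a in wild type were lost on that scale too. Rpl38, whose loss alters Hox mRNA translation in mouse embryos, had 0.18 and 0.20 without a call, and Rpl10, which joins the 60S subunit late, rose in Nat1-null cells (0.17, limma adjusted p = 0.04), a call lost without any 1 of 10 arrays (adjusted p = 0.053 to 0.091) and relative to its chromosome. Fau, which encodes Rps30 as a fusion with a ubiquitin-like protein, also rose with Nat1 loss in LIF (0.21). Of the ribosomal genes the symbol rule missed, Rps3a1 rose with 2i by 0.31 and 0.14 and Rack1 by 0.24 in wild type, with 0.19 in Nat1-null cells not called. The Nat1-null call of Rps3a1 was lost without any 1 of the LIF arrays, among others (limma adjusted p = 0.053 to 0.11). That of Rack1 in wild type was lost without wild-type 2i+LIF replicate 3 (limma adjusted p = 0.051).

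The members also differed by the chromosome they lie on, which the rule did not use. This was noticed after the values were seen, and no test was made of it. Chromosome 11 holds 7 tested members, Rpl19, Rpl23, Rpl23a, Rpl26, Rpl27, Rpl38 and Rps27a, beside 1285 other named genes. For 2i in wild type the chromosome 11 members had a median of 0.02, against 0.27 for the other 75 members. The other genes of chromosome 11 had a median of -0.36 with 71.2% of them lower, against 0.03 and 48.4% for the 14050 genes elsewhere. Thus 5 of the 10 lowest members lay on chromosome 11, below the other members but above their neighbours. In Nat1-null cells the 2i medians were 0.23 for the chromosome 11 members and 0.21 for the other members, with 0.06 and 0.05 for the genes. For genotype in LIF the chromosome 11 members were again lower, at -0.18 against 0.03, and the genes at -0.29 against -0.01.

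On single arrays, the shift of chromosome 11 genes relative to all genes was -0.03, -0.06 and -0.02 on Nat1-null 2i+LIF arrays, -0.03, -0.07 and -0.01 on Nat1-null LIF arrays, -0.13, -0.13 and -0.14 on wild-type 2i+LIF arrays and 0.20, 0.22 and 0.22 on wild-type LIF arrays. The wild-type LIF arrays stood above all others. In 20-Mb stretches along the chromosome the 2i difference in wild type, relative to all genes, was between -0.44 and -0.20 in all 7 stretches. Chromosome 8, which holds Rpl13, divided the genotypes instead. Its shift averaged -0.19 and -0.16 in Nat1-null cells in 2i+LIF and in LIF, and 0.17 and 0.16 in wild-type cells. For genotype in 2i+LIF, Rpl13 had a difference of -0.23, and the 817 chromosome 8 genes outside the set had a median of -0.34, against 0.04 elsewhere. Genes of the X chromosome were at -0.70 for genotype in LIF and -0.21 in 2i+LIF, while its 4 tested members had medians of 0.02 and 0.04.

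**Figure D5:**
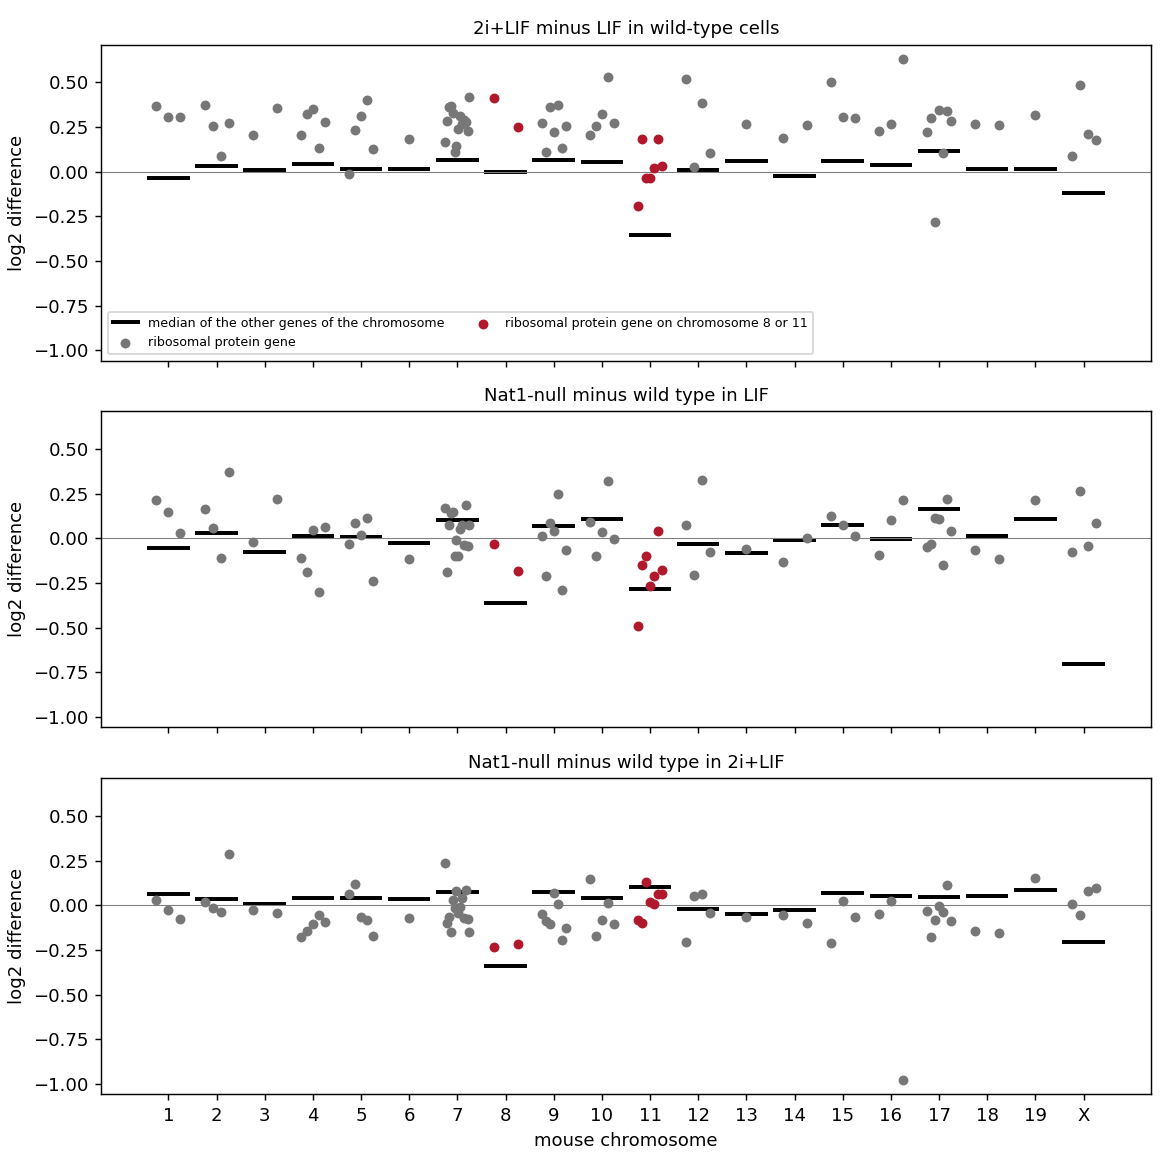
Log2 difference of each member (points) and median of the other named genes (bars) by chromosome, for 2i in wild type and genotype in each medium. Chromosome 11 genes are at -0.36 for 2i in wild type and -0.29 for genotype in LIF, with its 7 members (red) at medians of 0.02 and -0.18; chromosome 8 genes are at -0.36 and -0.34 for genotype.

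Taking each gene relative to the other genes of its chromosome, an alternative chosen after seeing the data, changed which members were called. For 2i in wild type 67 members were then higher and 1 lower, and 60 of the 63 calls were kept. Rpl19 turned to 0.15 (limma adjusted p = 0.021), and Rpl23a, Rpl26, Rpl27, Rpl38 and Rps27a became calls at 0.31, 0.31, 0.37, 0.53 and 0.38. For 2i in Nat1-null cells 61 members were higher and 2 lower, and 60 of the 67 calls were kept. Those lost were Rpl10, Rpl34, Rpl36a, Rpl39, Rpl7, Rps4x and Rps7. Of the 15 interaction calls 7 were kept, and Rpl19 (0.06, limma adjusted p = 0.48), Rpl23a, Rpl27 and Rps27a, which are 4 of the 5 upward ones, were lost, as were the downward calls of Rpl9, Rps9, Rps15 and Rps25. For genotype in LIF 13 of 25 calls were kept, Rpl19 among them (-0.24, limma adjusted p = 0.0014), while Rpl26 (-0.02, limma adjusted p = 0.83) and Rpl27 (0.04, limma adjusted p = 0.54) were lost. In 2i+LIF 10 of 14 were kept, with Rpl13 at 0.13 (limma adjusted p = 0.11), above 0. No DNA was analysed here, and why whole chromosomes shifted was not tested.

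Gene sets that work with the ribosome were described beside the members. Of 45 ribosome assembly and rRNA synthesis genes tested, 21 fell and 6 rose with 2i in wild type, with a median of -0.17, where 35.0% of all genes rose and 27.2% fell. With no scaling, all spike-ins or the bright spike-ins this median was -0.74, -0.55 and -0.46, beside -0.30, -0.11 and -0.02 for the members. All genes then had medians of -0.50, -0.32 and -0.23, and the sets were not tested against each other. With all genes shifted downward, falls pass more readily than rises under those scalings. All 21 falls were called under all 5 other scalings and none of the 6 rises was. They included the 60S assembly factor Pes1 (-1.88), Tsr1 (-0.93), which acts on the 40S precursor, and Rrp12 (-0.86), while Dkc1, the pseudouridine synthase, had the largest rise (0.70). In Nat1-null cells 7 rose and 2 fell with 2i, while 21.4% and 15.8% of all genes did. The median was 0.11, turning to between -0.08 and -0.04 with no scaling or spike-ins. The interaction passed upward for 21 and downward for 3, while 23.6% and 26.2% of all genes did. Upward calls included Tsr1 at 0.97, the 40S maturation kinase Riok2 at 0.88 and Nop2 at 0.86. For Nat1 loss in LIF 24 fell and 8 rose (median -0.32), while 32.9% and 33.9% of all genes did. The falls were led by Riok2 (-1.20) and Utp14a (-0.96). In 2i+LIF 11 rose and 4 fell (median 0.09), while 21.0% and 22.6% of all genes did. Eif6, which keeps free 60S subunits apart from 40S, was at 0.60 there.

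Of 19 other 5′ TOP mRNAs, 13 rose and 0 fell with 2i in wild type and 12 rose and 0 fell in Nat1-null cells, with medians of 0.24 and 0.20 close to those of the members. The shares of all genes that rose and fell were 35.0% and 27.2% in wild type and 21.4% and 15.8% in Nat1-null cells. None of the 13 and 1 of the 12, the snoRNA host Snhg1, was called under all 5 other scalings. With no scaling or spike-ins the medians of all genes were below 0 in both genotypes, so rises pass less readily there. For Nat1 loss in LIF 4 rose and 6 fell, where 33.9% and 32.9% of all genes did, with the initiation factor Eif4b at -0.73 and the histone chaperone Nap1l1 at -0.59. Of 24 genes of mTORC1 and Myc control, 8 rose and 11 fell with 2i in wild type, a share of rises near the 35.0% of all genes. Myc itself fell by 3.62 (SE 0.52, limma adjusted p = 0.00019) and Mxd4, its antagonist, by 1.92, while Deptor, an mTOR inhibitor, rose by 1.62. In Nat1-null cells Myc had -1.37 with 2i, not called, and relative to wild type it was higher in 2i+LIF by 1.56 (limma adjusted p = 0.035). Deptor was 1.72 higher with Nat1 loss in LIF. There the mTORC1 and Myc genes had 12 rises and 6 falls, while 33.9% and 32.9% of all genes rose and fell. A list named ribosomal protein surveillance had 13 genes tested, not all of which act on ribosomal proteins themselves. Of these, 3 rose and 2 fell with 2i in wild type, where 35.0% and 27.2% of all genes did. In Nat1-null cells 5 rose and 1 fell, where 21.4% and 15.8% of all genes did. For Nat1 loss in LIF 3 rose and 7 fell, where 33.9% and 32.9% of all genes did. Cdkn1a, the cell cycle inhibitor that p53 induces, rose with 2i by 1.08 in wild type and 1.55 in Nat1-null cells, and Mdm4, a p53 inhibitor, by 1.34 in wild type. Mdm2 fell with 2i in wild type (-0.70) and rose in Nat1-null cells (0.50), an interaction of 1.20 (limma adjusted p = 6.8e-06). Of the 77 mitochondrial ribosomal protein genes, 17 rose and 30 fell with 2i in wild type (median -0.08), where 35.0% and 27.2% of all genes did. The falls were led by Mrpl20 (-0.94) and Mrps7 (-0.90). All 30 falls were called under all 5 other scalings too, of which no scaling and the spike-ins shift all genes downward. In Nat1-null cells 18 rose and 3 fell (median 0.07), where 21.4% and 15.8% of all genes did. With no scaling 72 of the 77 fell in wild type, where the median of all genes was -0.50. The mitochondrial and cytosolic sets were not tested against each other.

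Over the 12 arrays, the genes outside the set whose levels were most alike to the members' median were Gm15772 (Pearson r 0.983), Atp6v1e1 (0.979), Uqcrfs1 (0.976), Elavl1 (0.975) and Slc10a1 (0.975), among 12462 genes bright on all arrays. These correlations are a description, since the arrays share 3 slides and a scale.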

How the data were processed

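Total RNA of 12 samples was measured on one-colour (Cy3) Agilent arrays. Per the file headers, Agilent Feature Extraction 10.7.3.1 made the deposited intensity values (processed, spot and local background signals) of each array, unscaled. In the series table the authors deposited, log2 values match the processed signal shifted by each array's 75th percentile. Control and outlier spots were removed, log2 signal was taken relative to that percentile, and 33275 of 55681 probes were kept, those with every array of 1 or more groups well above background. RefSeq accessions gave 27656 probes a symbol (GRCm38.p6). The brightest probe stood for each gene. limma 3.58.1 (R 4.3.3) fitted 4 group means to all 12 arrays, two-sided, with Benjamini-Hochberg adjustment over 24448 genes, and was tested on simulated data. Python 3.11.15 (numpy 2.4.6, pandas 2.3.3, matplotlib 3.10.9) made tables and figures.

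The members, lists and alternatives were chosen with earlier results of these data known. Genes named were set members with fixed roles, the 6 largest calls each way, the 5 farthest from the members' median each way, and up to 3 called genes each way of each list, and some genes this rule names are not reported here. Alternatives changed scaling, background correction (normexp on median signals, since mean signals were not used here), filter, probe choice, variance model and arrays. Of 18 same-numbered replicate pairs across groups, 1, replicate 2 of the Nat1-null groups, had deviations correlated above 0.1 (0.302), so replicate numbers were not taken as pairs. The number of arrays limits the precision.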

Additional observations from a re-analysis of the deposited data

Results flagged for a closer look

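For 17 genes the 2i difference itself differed between genotypes (limma interaction, adjusted p below 0.05; positive where it was larger in Nat1-null cells), which is the reason they are listed. Upward values were found for Rpl19 (0.41), Rps6 (0.25), Rps27a (0.24), Rpl23a (0.23) and Rpl27 (0.22), of which all but Rps6 lie on chromosome 11 and were lost relative to the other genes of that chromosome. The downward calls of Rps15, Rps25, Rps9 and Rpl9 were lost under that setting too. The largest downward values were those of Rpl39l (-1.19) and of Rpl7l1 (-0.80), which is no member. Between -0.34 and -0.28 lay Rpl3 (-0.33), Rpl36a (-0.32), Rps15 (-0.31) and Rpl28 (-0.29). Smaller downward values were those of Rps27 (-0.27), Rps29 (-0.27), Rps25 (-0.24), Rps9 (-0.22) and Rpl9 (-0.20), and of Rps3a1 (-0.17), which the symbol rule missed. The Rps3a1 call was lost without any 1 of the wild-type LIF or Nat1-null 2i+LIF arrays, among others (limma adjusted p = 0.061 to 0.1). Rpl39l was the member with the largest difference between genotypes. Its 2i difference was -0.56 in Nat1-null cells and 0.63 in wild-type cells. The cause was not tested, and wild-type arrays of each medium lie on a slide of their own.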

How the results depend on the processing

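Every count below is of the 82 members called higher and lower. The counts as reported were 62 and 1 for 2i in wild type, 65 and 2 for 2i in Nat1-null cells, 14 and 11 for genotype in LIF, 3 and 11 for genotype in 2i+LIF, and 5 and 10 for the interaction. Quantile normalization gave 10 and 14, 4 and 2, 14 and 24, 7 and 8, and 9 and 9 in that order. Cyclic loess gave 11 and 11, 4 and 2, 9 and 29, 3 and 15, and 7 and 8. No scaling gave 0 and 77, 1 and 2, 3 and 42, 51 and 1, and 67 and 1. The medians of all genes with no scaling were -0.50, -0.14, -0.14, 0.22 and 0.34 in the same order. Centring on the members gave 18 and 9, 0 and 7, 39 and 3, 15 and 3, and 5 and 18. 3 settings were chosen after seeing the data: all spike-ins gave 0 and 18, 0 and 2, 6 and 7, 24 and 1, and 11 and 1, the bright spike-ins 3 and 13, 0 and 2, 14 and 7, 18 and 1, and 6 and 1, and scaling by chromosome 67 and 1, 61 and 2, 13 and 21, 6 and 14, and 2 and 10. No filter on dim probes gave 60 and 1, 38 and 2, 10 and 8, 1 and 4, and 2 and 5, and only the 6 arrays of a comparison gave 61 and 2, 13 and 0, 11 and 9, and 1 and 5. A trended, robust variance raised genotype in LIF to 18 and 19 and genotype in 2i+LIF to 5 and 14, probes bright on all 12 arrays gave 63 and 2 for 2i in wild type, and the deposited table gave 3 and 11 for the interaction. The replicate block, although the replicate numbers do not pair the samples, gave 61 and 2 for 2i in wild type and changed no other count by over 1.5 times. The mean of a gene's probes, probes with no saturated spot and normexp stayed within 1.5 times. Leaving out 1 array gave 54 to 67 higher and 1 to 2 lower for 2i in wild type, 36 to 66 and 1 to 2 for 2i in Nat1-null cells, 10 to 16 and 7 to 12 for genotype in LIF, 1 to 5 and 3 to 12 for genotype in 2i+LIF, and 2 to 6 and 5 to 12 for the interaction. It turned 1 value, the members' median for genotype in LIF, to -0.025 without Nat1-null LIF replicate 1, in a range up to 0.0237. The causes of these changes were not tested. All 82 members were well above background on every array, the lowest member signal of an array being 176.6 to 388.2. Whether dim signal affected any of them was not tested. The values that follow are those whose sign turned under a setting. With no scaling, values for 2i in wild type were -0.30 for the members' median, -0.44 for Rplp0, -0.35 for Rplp1, -0.24 for Rplp2, -0.31 for Rpsa, -0.25 for Fau, -0.54 for Rps27a, -0.44 for Rps6, -0.34 for Rpl5, -0.36 for Rpl11, -0.48 for Rpl10, -0.34 for Rpl10a, -0.38 for Rpl38, -0.28 for Rps19, -0.25 for Rpl22, -0.0506 for Rpl10l, -0.54 for Rpl36al, -0.44 for Rps27l, -0.0685 for Rpl3, -0.36 for Rpl39, -0.0831 for Rpl36a, -0.21 for Rps27, -0.39 for Rps4x, -0.26 for Rpl7, -0.33 for Rack1, -0.0874 for Rpl22l1, -0.25 for Rps3a1, -0.0379 for Rps15 and -0.15 for Rps9. With no scaling, values for 2i in Nat1-null cells were -0.0238 for Rpl10, -0.0304 for Rpl36a, -0.0068 for Rps4x and -0.0535 for Rps3a1. With no scaling, values for genotype in LIF were -0.14 for the members' median, -0.0062 for Rplp2 and -0.15 for Rack1. With no scaling, values for genotype in 2i+LIF were 0.17 for the members' median, 0.0502 for Rplp0, 0.0449 for Rpl11, 0.19 for Rpl10a, 0.15 for Rps19, 0.0298 for Rps27l, 0.0128 for Rpl3, 0.17 for Rpl36a, 0.18 for Rps27, 0.14 for Rpl7, 0.18 for Rack1, 0.16 for Rps3a1 and 0.0427 for Rpl36. With no scaling, values for the interaction were 0.31 for the members' median, 0.26 for Rplp2, 0.31 for Rpsa, 0.31 for Fau, 0.31 for Rpl11, 0.34 for Rps19, 0.0417 for Rpl3, 0.0526 for Rpl36a, 0.11 for Rps27, 0.27 for Rpl7, 0.33 for Rack1, 0.33 for Rpl22l1, 0.20 for Rps3a1, 0.0667 for Rps15 and 0.0843 for Rpl28. With all spike-ins, values for 2i in wild type were -0.11 for the members' median, -0.25 for Rplp0, -0.16 for Rplp1, -0.0524 for Rplp2, -0.12 for Rpsa, -0.0609 for Fau, -0.35 for Rps27a, -0.25 for Rps6, -0.15 for Rpl5, -0.18 for Rpl11, -0.29 for Rpl10, -0.16 for Rpl10a, -0.0922 for Rps19, -0.0594 for Rpl22, -0.35 for Rpl36al, -0.17 for Rpl39, -0.0252 for Rps27, -0.20 for Rps4x, -0.0757 for Rpl7, -0.14 for Rack1 and -0.0652 for Rps3a1. With all spike-ins, the value for 2i in Nat1-null cells was -0.0109 for Rps3a1. With all spike-ins, the value for genotype in LIF was -0.0076 for the members' median. With all spike-ins, values for genotype in 2i+LIF were 0.16 for the members' median, 0.0366 for Rplp0, 0.0313 for Rpl11, 0.0162 for Rps27l and 0.0291 for Rpl36. With all spike-ins, values for the interaction were 0.17 for the members' median and 0.0543 for Rps3a1. With the bright spike-ins, values for 2i in wild type were -0.0218 for the members' median, -0.0667 for Rplp1, -0.0323 for Rpsa, -0.26 for Rps27a, -0.0581 for Rpl5, -0.0842 for Rpl11, -0.20 for Rpl10, -0.0645 for Rpl10a, -0.0013 for Rps19, -0.0801 for Rpl39, -0.11 for Rps4x and -0.0499 for Rack1. With the bright spike-ins, values for 2i in Nat1-null cells were -0.0025 for Rpl36a and -0.0256 for Rps3a1. With the bright spike-ins, the value for genotype in 2i+LIF was 0.0945 for the members' median. With the bright spike-ins, the value for the interaction was 0.0606 for the members' median. With quantile normalization, values for 2i in wild type were -0.16 for Rplp0, -0.0398 for Rplp1, -0.0094 for Rpsa, -0.24 for Rps27a, -0.12 for Rps6, -0.0585 for Rpl11, -0.15 for Rpl10, -0.0371 for Rpl10a, -0.0767 for Rpl39, -0.0543 for Rps4x and -0.0268 for Rack1. With quantile normalization, values for 2i in Nat1-null cells were -0.0164 for Rplp0, -0.0205 for Rpl10, -0.0344 for Rpl36a, -0.0089 for Rps4x, -0.0042 for Rpl7 and -0.0485 for Rps3a1. With quantile normalization, the value for genotype in LIF was -0.0013 for the members' median. With quantile normalization, the value for the interaction was 0.0058 for the members' median. With cyclic loess, values for 2i in wild type were -0.0251 for Rplp1, -0.22 for Rps27a, -0.0487 for Rpl11, -0.16 for Rpl10, -0.0308 for Rpl10a, -0.0226 for Rpl39, -0.0474 for Rps4x and -0.0169 for Rack1. With cyclic loess, values for 2i in Nat1-null cells were -0.0144 for Rplp0, -0.0001 for Rplp2, -0.011 for Rpsa, -0.0347 for Rpl10, -0.0148 for Rpl36a, -0.0013 for Rpl7 and -0.0368 for Rps3a1. With cyclic loess, the value for genotype in LIF was -0.042 for the members' median. Centred on the members, values for 2i in wild type were -0.18 for Rps27a, -0.0104 for Rpl11, -0.12 for Rpl10, -0.0063 for Rpl39 and -0.0387 for Rps4x. Centred on the members, values for 2i in Nat1-null cells were -0.0473 for the members' median, -0.0599 for Rplp0, -0.0041 for Rplp1, -0.0468 for Rplp2, -0.0608 for Rpsa, -0.0853 for Rpl10, -0.0152 for Rpl10a, -0.0000 for Rps19, -0.0272 for Rps27l, -0.0919 for Rpl36a, -0.17 for Rps27, -0.0682 for Rps4x, -0.0571 for Rpl7, -0.22 for Eif4g2, -0.12 for Rps3a1, -0.18 for Rpl21 and -0.18 for Rpl28. Centred on the members, the value for genotype in 2i+LIF was 0.02 for the members' median. Scaled by chromosome, values for 2i in wild type were 0.15 for Rpl19, 0.31 for Rpl23a and 0.31 for Rpl26. Scaled by chromosome, values for genotype in LIF were -0.0345 for the members' median, 0.0676 for Rps27a, 0.52 for Rpl10, 0.55 for Rpl39 and -0.0033 for Rps2. Scaled by chromosome, values for genotype in 2i+LIF were 0.19 for Rpl36a and 0.13 for Rpl13. Scaled by chromosome, values for the interaction were 0.0001 for the members' median, -0.10 for Rps27a, -0.32 for Rpl38, -0.34 for Rps4x, -0.11 for Rpl23a and -0.12 for Rpl27. With probe means, values for genotype in LIF were 0.32 for Rpsa and 0.39 for Rpl22. With probe means, values for genotype in 2i+LIF were 0.0096 for Rplp0 and -0.14 for Rpl13a. With probe means, the value for the interaction was -0.58 for Rpl22.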
